A study of Mus musculus with 8 samples.

Results

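The genes described here encode the signaling part of the T cell antigen receptor: the CD3 chains Cd3d, Cd3e, Cd3g and Cd247, the receptors Cd4 and Cd28, the kinases Lck and Zap70, and the adaptor Lat. They were taken by name from the expression table, in which all 9 were present among 45232 rows. Their transcripts were measured by RNA sequencing in CD4+ CD25+ T cells, a sorted fraction rich in regulatory T cells, from mouse visceral adipose tissue and spleen. The series compared WT cells with Id2-deficient cells, labelled KO in the titles and Id2 CKO in the genotype field, all on C57BL/6. The 4 groups were WT adipose, KO adipose, WT spleen and KO spleen, each with 2 libraries numbered 2 and 3, which the table's headers call experiments. Each library came from at least 500 sorted cells. The sources used here do not give the Cre line behind the Id2 deletion, the deleted part of the gene, the age of the mice or how many were pooled per library. Nor do they say whether the pair of libraries in a group represents different animals. Each p-value therefore reflects only how far these libraries lie apart, which may be technical.

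The antigen-binding chains of the T cell receptor carry almost no cytoplasmic tail, and the signal is passed on by the associated CD3γ, CD3δ and CD3ε chains and by the ζ chain encoded by Cd247. The kinase Lck, brought to the complex by the CD4 coreceptor, phosphorylates tyrosine motifs in these chains. Zap70 docks on the phosphorylated motifs and phosphorylates the membrane adaptor Lat, from which the calcium, Ras and protein kinase C arms start, while Cd28 gives the costimulatory signal. Regulatory T cells depend on this receptor for their selection in the thymus and for their activity in tissues. Id2 is an inhibitor of E proteins, transcription factors that bind CANNTG sequences, called E-boxes.

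The sequences upstream of the CD3 chain genes are shown because Cd3g and Cd3d, which start 1355 bases apart and are read in opposite directions, had similar profiles over the libraries, whereas Cd3e, on the same chromosome, did not; Cd247 completes the set of chains. Each is the 250 bases before the gene's start in RefSeq (GRCm38.p6), written along the gene's own strand. Capitals mark CAGGTG and its reverse complement CACCTG, an E-box form that E proteins are known to bind. The Cd3g window is chr9:44980432-44980681 on the minus strand, the Cd3d window chr9:44981536-44981785 on the plus strand, the Cd3e window chr9:45009612-45009861 on the minus strand, and the Cd247 window chr1:165788431-165788680 on the plus strand.
Cd3g: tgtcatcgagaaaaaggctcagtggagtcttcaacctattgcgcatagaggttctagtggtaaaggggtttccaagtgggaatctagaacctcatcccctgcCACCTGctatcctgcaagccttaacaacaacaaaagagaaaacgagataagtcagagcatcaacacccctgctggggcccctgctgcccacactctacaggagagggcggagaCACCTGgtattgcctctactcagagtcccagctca
Cd3d: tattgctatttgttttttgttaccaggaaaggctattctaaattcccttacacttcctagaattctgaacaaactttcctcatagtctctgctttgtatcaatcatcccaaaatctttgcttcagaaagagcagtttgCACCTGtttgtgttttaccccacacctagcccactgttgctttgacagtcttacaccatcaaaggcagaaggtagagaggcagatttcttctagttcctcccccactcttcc
Cd3e: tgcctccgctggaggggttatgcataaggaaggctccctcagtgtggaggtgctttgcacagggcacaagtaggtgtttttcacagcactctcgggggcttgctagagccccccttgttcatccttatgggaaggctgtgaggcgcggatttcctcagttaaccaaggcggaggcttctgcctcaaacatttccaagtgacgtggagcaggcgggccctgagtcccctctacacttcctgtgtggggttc
Cd247: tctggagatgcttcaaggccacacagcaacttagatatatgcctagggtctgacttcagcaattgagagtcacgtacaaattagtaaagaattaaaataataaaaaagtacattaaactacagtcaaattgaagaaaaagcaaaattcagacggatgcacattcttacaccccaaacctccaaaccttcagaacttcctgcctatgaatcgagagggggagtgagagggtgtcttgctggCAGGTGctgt
The motif, searched on both strands, occurred 2 times before Cd3g, its first base 148 and 35 bases before the start. It occurred 1 time before Cd3d, at 112 bases, and 1 time before Cd247, at 10 bases. The Cd3e window held no CAGGTG or CACCTG. RefSeq windows were at hand for 7 of the 9 genes, with 10 start sites in all, and those for Cd4 and Cd28 were not used here. At least 1 window held the motif in 5 of these 7 genes, and 6 of the 10 windows did, against 17.2% of the 32851 windows of that length in RefSeq. The looser CANNTG, which includes CAGGTG and CACCTG, occurred in 66.2% of them and in 9 of the 10 windows, among them 1 time before Cd3e. A match describes the letters in the window and is not a measured binding site.

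The expression values are TPM, which are scaled for gene length and to the same total in every library, so read depth is unknown. Between 13184 and 20684 genes were above 0 per library, the highest number being in KO adipose 3. Id2, the targeted gene, measured 2249 (experiment 2) and 3679 TPM (experiment 3) in WT adipose against 1499 and 1298 TPM in KO adipose, and 274 and 346 TPM in WT spleen against 72.1 and 265 TPM in KO spleen. It was lower in KO within each experiment and tissue without reaching 0, and the gap was narrowest in spleen of experiment 3. Foxp3, the transcription factor that defines regulatory T cells, was near absent from both KO libraries of experiment 2, with 7.40 TPM (adipose) and 8.27 TPM (spleen), while the other 6 libraries held 93.5 to 266 TPM. A list of 5 regulatory T cell markers did not fall to that extent. Its summed TPM was 1703 for KO adipose 2 against 1637 for WT adipose 2, and 1597 for KO spleen 2 against 2160 for WT spleen 2. Among these markers, Il2ra was lower in both of these comparisons, at 33.8 against 68.7 and 71.8 against 120 TPM. Ctla4, also on the list, was lower in both as well, at 267 against 393 and 210 against 352 TPM. KO adipose 3 also stood apart: 10 macrophage markers summed to 11164 TPM there, against 9.4 to 21.0 TPM in the other adipose libraries and 13.3 to 614 TPM in spleen. The 6 adipocyte markers summed to 14257 TPM in KO adipose 3, 2099 TPM in WT adipose 3 and at most 51.2 TPM elsewhere. The 9 fibroblast and mesothelial markers summed to 730 and 3591 TPM in KO adipose and to at most 4.796 TPM elsewhere.

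All 9 receptor complex genes were detected in every library, from 33.2 TPM for Zap70 in KO adipose 2 to 4044 TPM for Cd3g in KO spleen 2. Cd3g was the highest of the 9 in each of the 8 libraries. Cd3d, Lck and Lat followed, none of them under 314 TPM in any library, and Cd247, Cd4, Cd28 and Zap70 formed a lower tier, none of them over 214 TPM. In WT libraries the mean TPM was 2293 for Cd3g, 1463 for Cd3d, 1053 for Lck, 772 for Lat, 493 for Cd3e, 164 for Cd28, 140.5 for Cd247, 126 for Cd4 and 99.7 for Zap70. Neighbours in this order had overlapping ranges over the libraries. The place of Cd3e depended on the experiment: at rank 3 or 4 of the 9 in experiment 3, and at rank 5 or 8 in experiment 2.

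**Figure D1:**
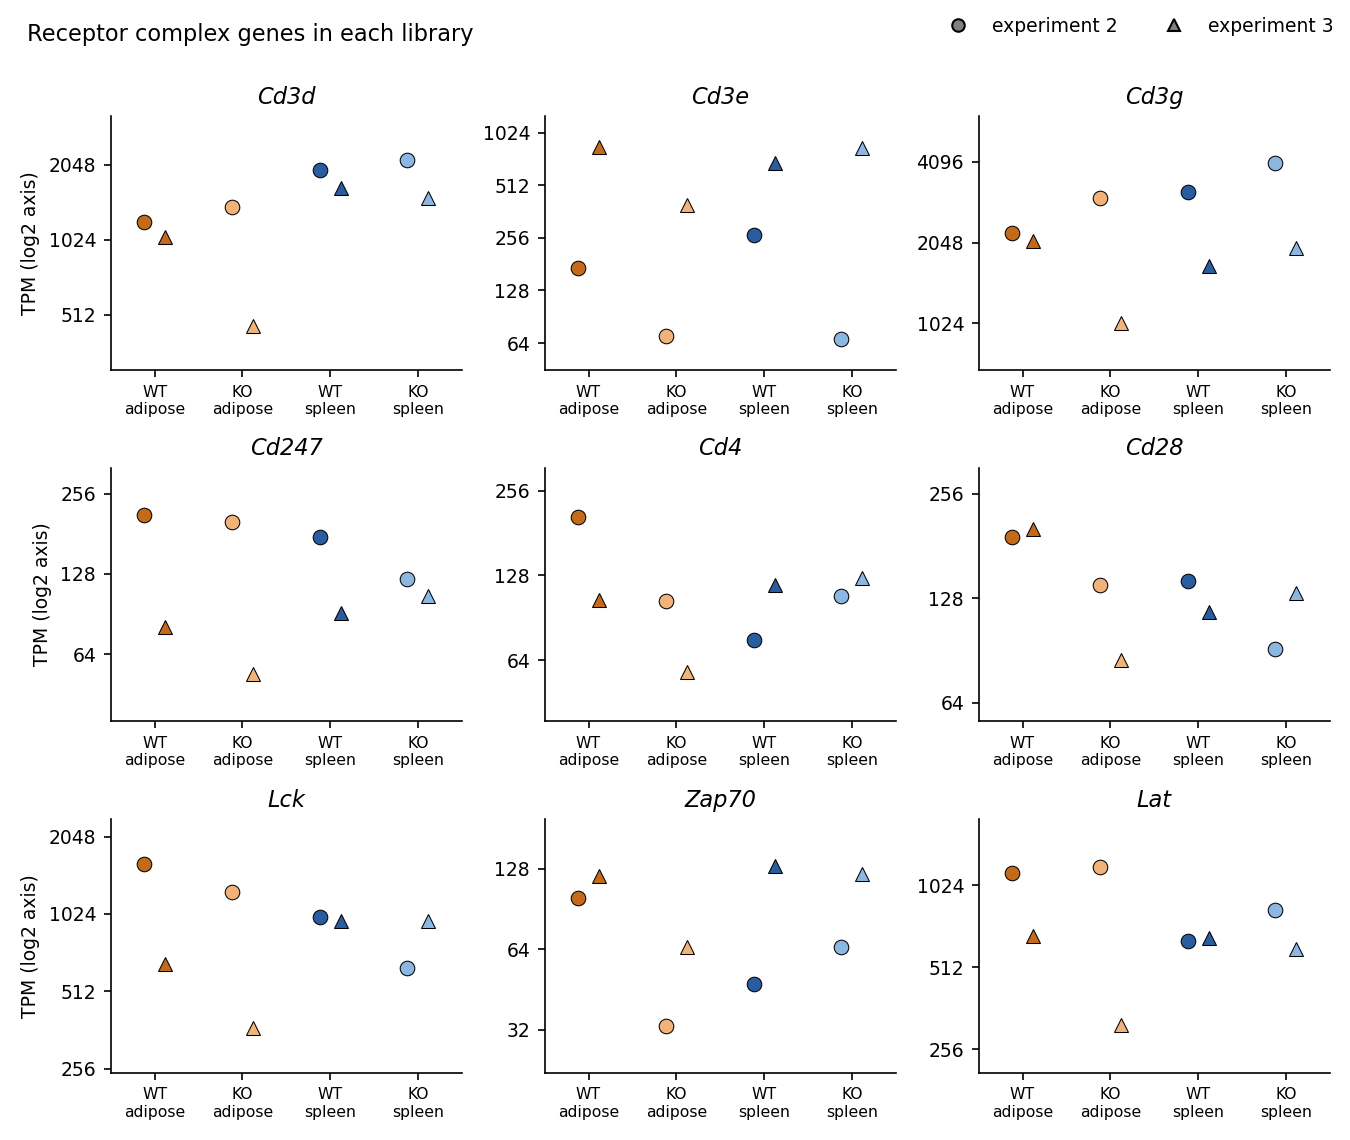
TPM of each of the 9 genes (y axis, log2 scale) in the 4 groups (x axis), with circles for the libraries of experiment 2 and triangles for those of experiment 3. Cd3e sits between 67.3 and 266 TPM in experiment 2 and between 393 and 847 TPM in experiment 3, whereas Cd3g is at 1028 TPM or more in every library.

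The CD3 chains did not vary together. Values are given as experiment 2, then experiment 3. Cd3e, the chain that pairs with both CD3γ and CD3δ, was at 172 and 847 TPM in WT adipose, 70.6 and 393 TPM in KO adipose, 266 and 688 TPM in WT spleen, and 67.3 and 833 TPM in KO spleen. Every experiment 3 library was above every experiment 2 library, by 2.59 to 12.4 times within a group. In both tissues the KO library of experiment 2 held less Cd3e than its WT counterpart, the same 2 libraries in which Foxp3 was lowest.

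Cd3g, which pairs with CD3ε, went the other way. It was at 2232 and 2086 TPM in WT adipose, 3008 and 1028 TPM in KO adipose, 3173 and 1679.6 TPM in WT spleen, and 4044 and 1949 TPM in KO spleen. All 4 experiment 3 libraries were below all 4 of experiment 2, although the gap in WT adipose was small. Cd3d, the other partner of CD3ε, was at 1207 and 1052 TPM in WT adipose, 1379.9 and 460.4 TPM in KO adipose, 1945 and 1651 TPM in WT spleen, and 2133 and 1504 TPM in KO spleen. It was lower in experiment 3 in each group, but the ranges of the experiments overlapped. Over the 8 libraries, which share their experiments and their scaling to a common total, the log2 values of Cd3d and Cd3g had a Pearson r of 0.83, those of Cd3e and Cd3g -0.65, and those of Cd3e and Cd3d -0.28.

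Cd247, whose ζ chain carries the most tyrosine motifs of the complex, was at 214 and 81.1 TPM in WT adipose, 201 and 53.7 TPM in KO adipose, 176 and 91.0 TPM in WT spleen, and 123 and 105 TPM in KO spleen. Its experiment 3 values lay below those of experiment 2 in all groups. Over the same 8 libraries its r was 0.87 with Lck, 0.86 with Lat, 0.73 with Cd3g and 0.60 with Cd3d, and -0.43 with Zap70 and -0.61 with Cd3e.

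As a share of the summed TPM of the 4 chains, Cd3e made up 1.06% to 4.78% in experiment 2 and 16.7% to 20.8% in experiment 3. Cd3g made up 57.1% to 64.5% in experiment 2 and 40.9% to 53.1% in experiment 3. The ratio of Cd3g to Cd3e was 11.9 to 60.1 in experiment 2 and 2.34 to 2.61 in experiment 3. That ratio was thus nearly constant within experiment 3, over both tissues and genotypes, and varied widely within experiment 2. Being a ratio of TPM within a library, it does not depend on how much other RNA the library held.

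**Figure D2:**
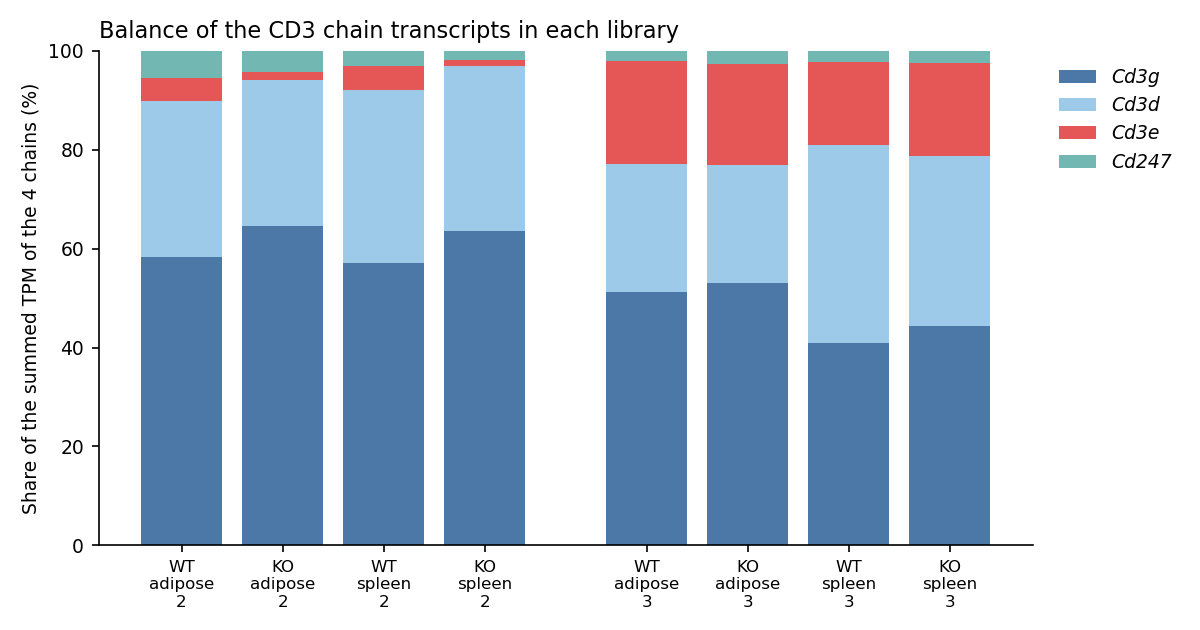
Share in percent (y axis) of each CD3 chain transcript in the summed TPM of Cd3g, Cd3d, Cd3e and Cd247, as stacked bars for the 8 libraries (x axis). The Cd3e segment is 1.06% to 4.78% in the libraries of experiment 2 and 16.7% to 20.8% in those of experiment 3.

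The receptor's antigen-binding constant regions did not share the Cd3e pattern. Trac, the α chain constant region, was at 2262 and 1611 TPM in WT adipose, 3377 and 864 TPM in KO adipose, 2684 and 2247 TPM in WT spleen, and 3127 and 2420.4 TPM in KO spleen. It was lower in experiment 3 in 4 of 4 groups, as was Trbc2, and Trbc1 was lower in 3 of 4.

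Cd4, the coreceptor used for the sort, was at 206 and 105 TPM in WT adipose, 104 and 58.4 TPM in KO adipose, 75.6 and 119 TPM in WT spleen, and 108 and 126 TPM in KO spleen. Adipose values were lower in experiment 3 and splenic values higher. Cd8a, which the gate should remove, was between 0 and 11.3 TPM and Cd8b1 between 5.10 and 81.2 TPM. Cd28 was at 192 and 203 TPM in WT adipose, 139.8 and 84.7 TPM in KO adipose, 143 and 117 TPM in WT spleen, and 91.5 and 132 TPM in KO spleen. It was the steadiest of the 9 genes, with a 2.39-fold span over the libraries, against 12.6-fold for Cd3e.

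Lck was at 1599 and 652 TPM in WT adipose, 1249.9 and 369.9 TPM in KO adipose, 998 and 965 TPM in WT spleen, and 631 and 964 TPM in KO spleen. The experiments lay apart in adipose tissue, and in spleen they were level in WT and reversed in KO. Zap70 was at 99.4 and 121 TPM in WT adipose, 33.2 and 65.1 TPM in KO adipose, 47.5 and 131 TPM in WT spleen, and 65.4 and 122 TPM in KO spleen. It was higher in experiment 3 in every group, as Cd3e was, and these genes had an r of 0.75.

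Lat was at 1132 and 665 TPM in WT adipose, 1194 and 314 TPM in KO adipose, 637 and 652 TPM in WT spleen, and 829 and 596 TPM in KO spleen. It followed Lck, with an r of 0.82, and was lower in experiment 3 except in WT spleen. The ratio of Lck to Zap70 was 9.64 to 37.7 in experiment 2 and 5.39 to 7.91 in experiment 3. For Lat to Zap70 it was 11.4 to 36.0 and 4.82 to 5.51. Both ratios over Zap70 spanned a narrower range in experiment 3, as did those over Cd3e, whereas Cd3g to Cd3d spanned a wider one, 1.02 to 2.23 against 1.63 to 2.18 in experiment 2.

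The difference between the experiments was tested with limma on log2(TPM + 1), as the experiment term of a fit that also held the 4 groups. This comparison was chosen after the data were seen. None of the 9 genes passed an adjusted p of 0.05 over the 13376 genes tested, of which 0.00748% passed. At an unadjusted p under 0.05, 5 of the 9 did, as did 2579 of all genes. Cd3e was higher in experiment 3 in 4 of 4 groups, by 2.43 on average (SE 0.35, 95% interval 1.60 to 3.27, adjusted p = 0.189, limma). Its p-value ranked 9 of the 13376. Zap70 was higher by 0.89 (SE 0.24, adjusted p = 0.191) in 4 of 4 groups. Only these 2 of the 9 estimates were above 0, in a table whose median gene was 0.30 higher in experiment 3, with 69.7% of genes above 0 and 30.3% below. Over the other settings tried, which included leaving out each group in turn, the Cd3e difference was 2.04 to 2.79 with adjusted p-values of 0.0687 to 0.397.

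Cd247 was at a log2 difference of -1.11 (SE 0.29, adjusted p = 0.190, limma) and Cd3g of -0.90 (SE 0.27, adjusted p = 0.200). Lat was at -0.78, Cd3d at -0.63, Lck at -0.62, Cd4 at -0.23 and Cd28 at -0.10, with adjusted p-values of 0.256 or more. All 4 groups were lower in experiment 3 for Cd3d, Cd3g and Cd247, a pattern held by 6.54% of all genes tested. For Cd3e and Zap70 all 4 were higher, as for 24.2% of genes. The experiments' values did not overlap for Cd3g and Cd247, lower in experiment 3 as were 2.04% of genes, and for Cd3e, higher as were 6.18%.

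**Figure D3:**
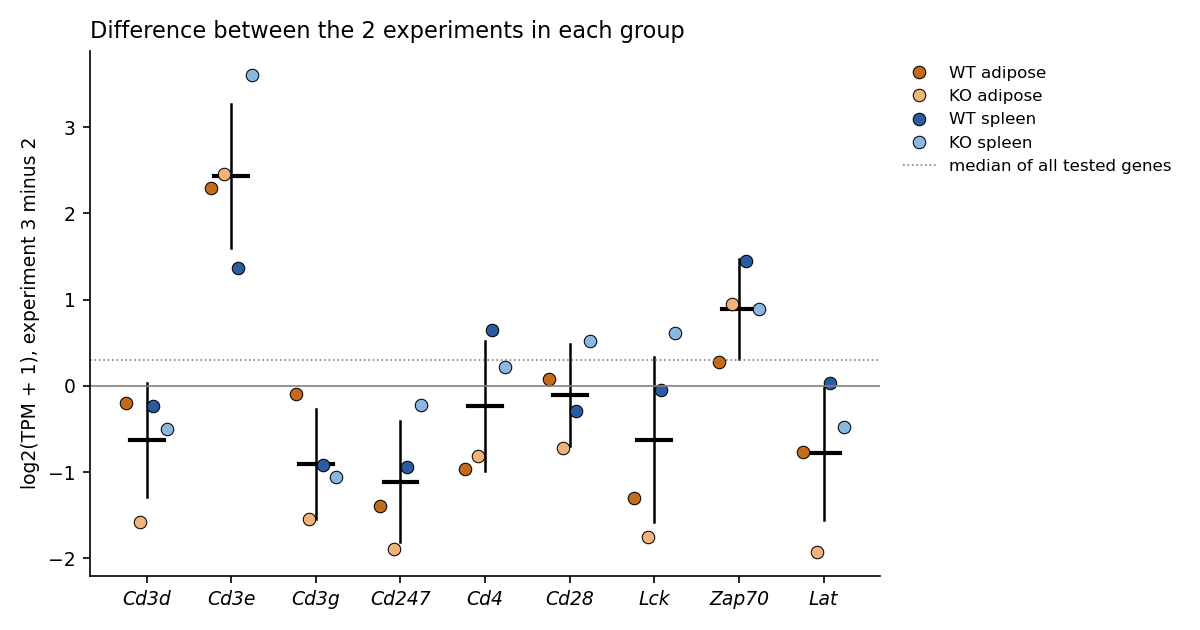
Difference in log2(TPM + 1) between experiments 3 and 2 (y axis) for the 9 genes (x axis), with 1 point for each of the 4 groups and a dotted line at the median of all genes tested, 0.30. All 4 points lie above 0 for Cd3e and Zap70 and below 0 for Cd3d, Cd3g and Cd247.

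Longer transcripts tended to be higher in experiment 3: over 11389 genes with a coding transcript in GENCODE, the Spearman correlation of the longest one's length with the mean experiment difference was 0.28. With the genes cut into 5 equal bins by length, the median difference was -0.04 in the shortest bin and 0.49 in the longest. Cd3e, whose longest coding transcript has 1462 bases, is in the shortest bin together with Cd3g at 1023, Lat at 1235 and Cd3d at 1617. Markers of B cells summed to 439 and 384 TPM in the splenic libraries of experiment 2, 80.5 and 82.1 TPM in those of experiment 3, and 19.0 to 56.1 TPM in adipose tissue. The sum of the erythroid markers was higher in experiment 3 within each group. The part of transcript length, of B cell transcripts or of erythroid transcripts in these differences was not tested. Nor was that of the near-absent Foxp3 in the KO libraries of experiment 2.

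Loss of Id2 was compared with WT within each tissue by limma. In adipose tissue 0 of the 9 genes passed, against 0.284% of all genes tested, and 1, Cd28, had an unadjusted p under 0.05. All 9 estimates were below 0, with a median log2 difference of -0.58, where the median over all genes was -0.27, with 67.7% of genes below 0 and 31.9% above. Zap70 was at -1.22 (SE 0.56, adjusted p = 0.740), Cd4 at -0.90 (SE 0.45, adjusted p = 0.747) and Cd28 at -0.85 (SE 0.36, adjusted p = 0.684). For these 3 both KO libraries were below both WT libraries, which was so for 27.5% of all genes. Cd3e was at -1.19 (adjusted p = 0.831, limma), with a standard error of 1.29 that reflects the gap between the experiments. Within experiments 2 and 3 its differences were -1.27 and -1.10. With the experiment number as a term in the limma fit, its adjusted p was 0.419, which did not pass either.

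The experiments differed in this comparison. In experiment 3 all 9 genes were lower in KO adipose than in WT adipose, with log2 differences from -0.59 for Cd247 to -1.25 for Cd28. In experiment 2 Cd3d, Cd3g and Lat were higher in KO and the other 6 lower. Without KO adipose 3, the library with the highest sums of macrophage and adipocyte markers, 5 of the 9 estimates were above 0 and the median was 0.29. Without KO adipose 2 it was -1.28.

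In spleen 0 of the 9 genes passed in limma, as did 0% of all genes tested. None had an unadjusted p under 0.05, which 64 of all genes had. Estimates were above 0 for 5 and below 0 for 4, where 35.3% of all genes were above 0 and 63.5% below, and each adjusted p was 1. Lck alone had both KO libraries below both WT libraries, by under 1 TPM in experiment 3, as had 13.9% of all genes. The largest in size was Cd3e at -0.84 (SE 1.29), which was 266 against 67.3 TPM in experiment 2 and 688 against 833 TPM in experiment 3. The intervals leave sizable differences possible: for Cd3d, whose estimate was near 0, the 95% interval ran from -1.17 to 1.17.

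Adipose tissue was then compared with spleen within each genotype. Among WT libraries 0 of the 9 genes passed in limma, and none at an unadjusted p under 0.05, against 0.164% of all genes tested past the adjusted threshold and 1741 at the unadjusted one. Estimates were above 0 for 6 of the 9, and below 0 for 3, where 65.5% of all genes were above 0 and 34.1% below. Cd3d was lower in both adipose libraries than in both splenic ones, at a log2 difference of -0.67 (SE 0.51, adjusted p = 0.596), while 15.1% of all genes were separated in that direction. Cd28, at 0.60 (SE 0.36, adjusted p = 0.500), and Lat, at 0.43 (SE 0.59, adjusted p = 0.775), were higher in both, as were 37.8% of all genes.

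Among KO libraries 0 of the 9 genes passed in limma, and none at an unadjusted p under 0.05, against 1.08% of all genes tested and 1720 genes. All 9 estimates were below 0, with a median of -0.51, where the median of all genes was 0.16, with 58.5% of genes above 0 and 41.4% below. Cd3d, at -1.17 (SE 0.51, adjusted p = 0.389), Zap70, at -0.93 (SE 0.56, adjusted p = 0.546), and Cd4, at -0.58 (SE 0.45, adjusted p = 0.652), were lower in both adipose libraries, as were 14.6% of all genes. Without KO adipose 2 the estimate for Cd3d was -1.96 and passed (adjusted p = 0.0449, limma). This rests on KO adipose 3 alone, assumed to vary like the other groups. Without KO adipose 3, 5 of the 9 estimates were above 0.

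The difference between the genotype effects in the tissues gave 0 of 9 genes passed in limma, and none at an unadjusted p under 0.05, against 0.0299% of all genes tested and 409 genes. Each of the 9 estimates was below 0, where 60.4% of all genes were below 0 and 39.6% above. Those largest in size were Zap70 at -1.39 (SE 0.79) and Cd4 at -1.20 (SE 0.64), each with an adjusted p of 0.99998.

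**Figure D4:**
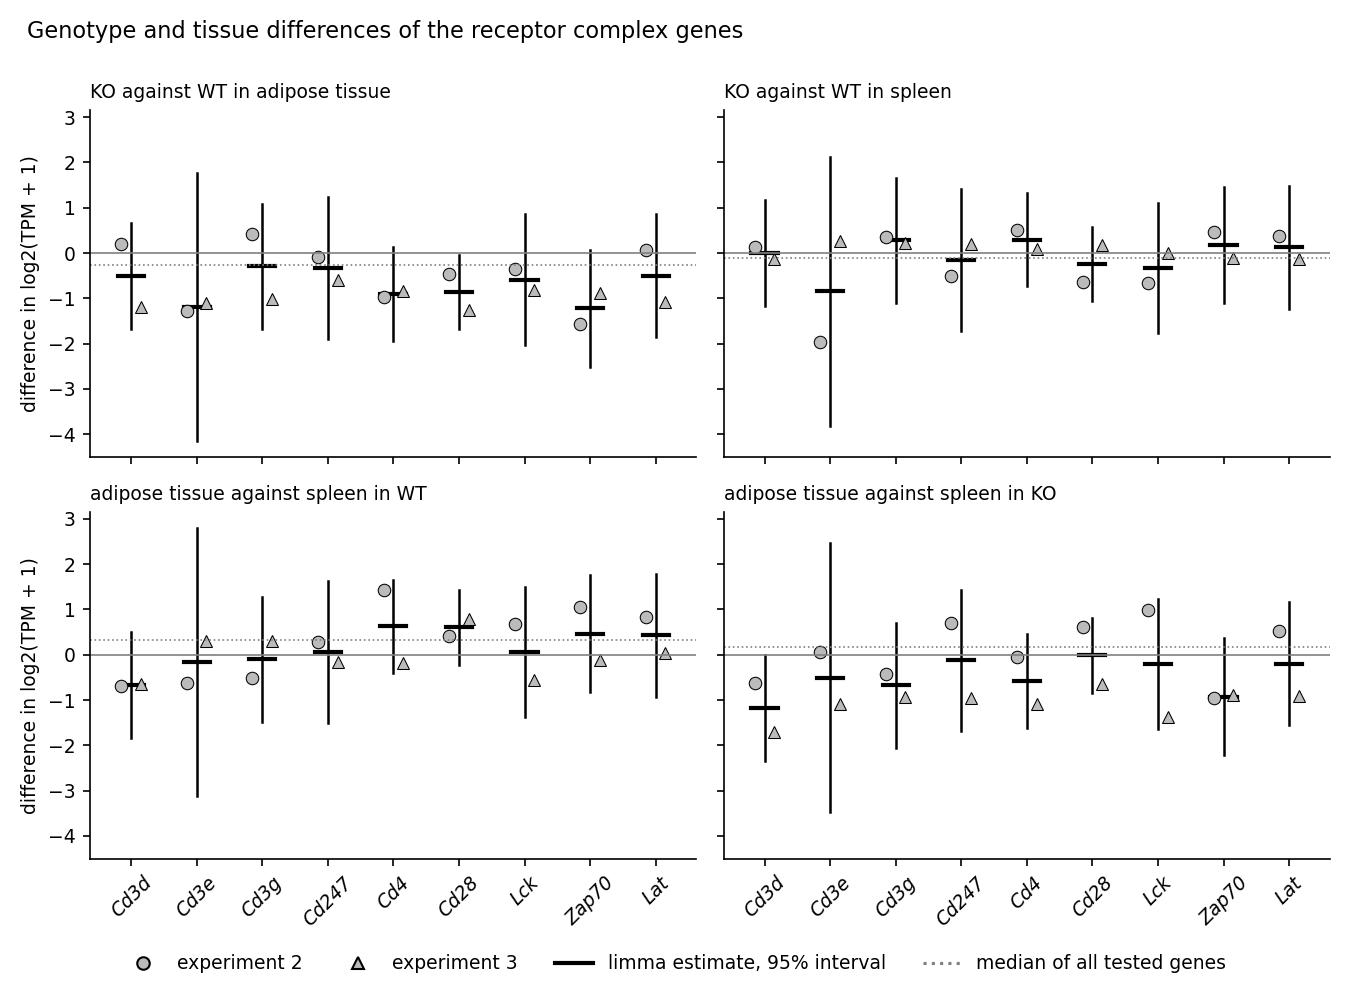
Difference in log2(TPM + 1) (y axis) of the 9 genes (x axis) in the genotype and tissue comparisons, with the limma estimate and its 95% interval and the differences within experiments 2 and 3 as points. The dotted line is the median of all genes tested. In adipose tissue all 9 experiment 3 points of KO against WT lie below 0, while 3 of the experiment 2 points lie above it.

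The summed TPM of the 9 genes was 2828 in KO adipose 3 and 5810 to 8092 in the other libraries. A set of 8 other T cell genes, among them Cd2, Cd5, Cd6, Thy1 and Bcl11b, gave 2106 TPM in KO adipose 3 and 4111 to 5661 TPM elsewhere. The ratio of the first sum to the second lay between 1.23 and 1.60 in all 8 libraries, and was 1.34 in KO adipose 3. The receptor complex genes as a sum were therefore lower in that library in about the same proportion as other T cell transcripts. In such bulk samples, fewer T cells and less RNA per T cell cannot be told apart.

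Centred on the median log2 value of these T cell genes in each library, several directions between groups turned. For KO against WT adipose, 5 of the 9 estimates turned to above 0 (Cd3d, Cd3g, Cd247, Lck and Lat), while Cd3e, Cd4, Cd28 and Zap70 stayed below 0. The median of all genes was then 0.54. Between adipose tissue and spleen all 9 were below 0 in both genotypes, and in the difference between genotype effects 7 of 9 were above 0. The contrast between the experiments held in sign for all 9 genes on this scale. Per 1000 TPM of the sum of the T cell genes, Zap70 was 6.46 to 21.1 in experiment 2 and 25.8 to 30.9 in experiment 3. Cd3e was 13.3 to 47.0 and 139 to 206. Scaled to this sum, not all tissue directions were those of the centred fit. In WT, Cd28 was 40.7 and 49.3 in adipose tissue against 25.3 and 23.6 in spleen, and Lat 240 and 162 against 113 and 132. Cd3d stayed lower in adipose tissue, at 256 and 256 against 344 and 333.

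**Figure D5:**
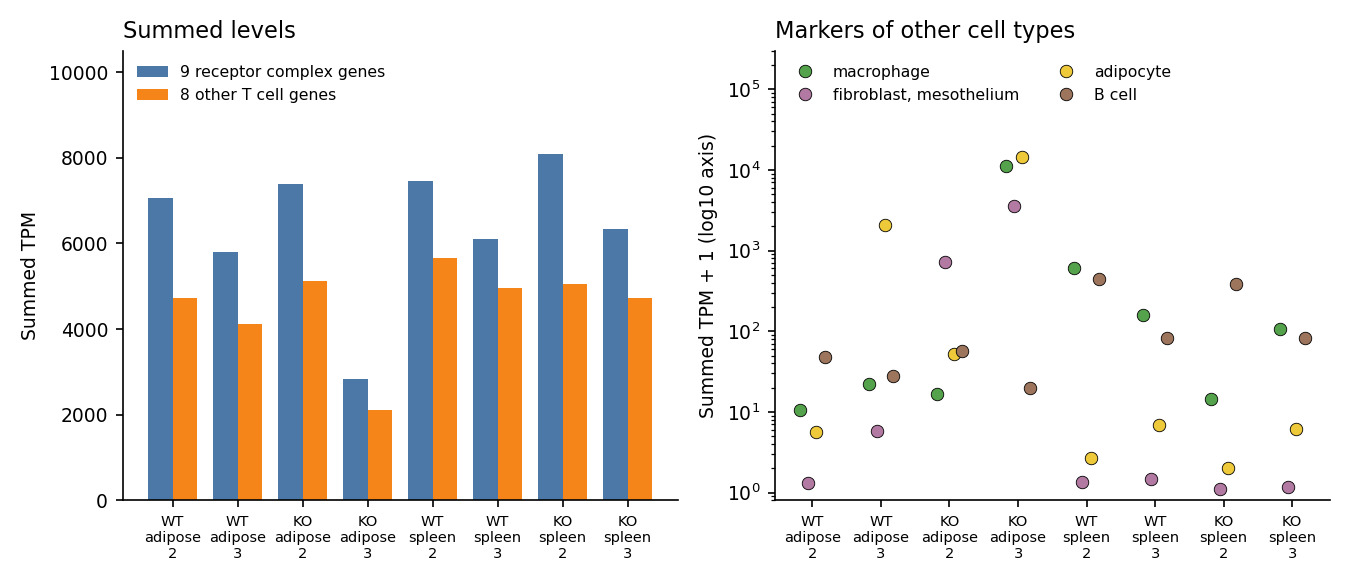
Left, summed TPM of the 9 receptor complex genes and of 8 other T cell genes (y axis, from 0) in the 8 libraries; right, summed TPM plus 1 of markers of other cell types (log10 axis) in the same libraries. Both T cell sums are lowest in KO adipose 3, at 2828 and 2106 TPM, where macrophage and adipocyte markers sum to 11164 and 14257 TPM. Of the adipocyte sum there, Fabp4 alone gives 13591 TPM.

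The pathway around these genes was examined with lists of its other parts. Of 18 further proximal kinases and adaptors none passed in any of the 5 genotype and tissue comparisons. In KO against WT adipose 14 of the 18 were below 0 (median -0.57) and in spleen 17 (median -0.33), where 67.7% and 63.5% of all genes were below 0. Between adipose tissue and spleen 13 of the 18 were above 0 in WT (median 0.36) and 14 in KO (median 0.43). Of all genes 65.5% were above 0 in WT (median 0.32) and 58.5% in KO (median 0.16). In KO the list thus lay mostly on the side of most genes, opposite to the 9 receptor complex genes, although the lists were not compared by a test.

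Of 15 genes of the protein kinase C, Ras and calcium arms none passed. In KO against WT adipose 13 of the 15 were below 0 (median -0.66) and in spleen 14 (median -0.28). Rasgrp1, the diacylglycerol-dependent activator of Ras, was at 112 and 89.5 TPM in WT adipose and 37.1 and 37.97 TPM in KO adipose. The groups did not overlap, as for 27.5% of all genes in that direction, at a log2 difference of -1.39 (SE 0.38, adjusted p = 0.358, limma). Of 20 negative regulators none passed, with 19 below 0 in KO against WT adipose (median -0.58) and 18 in spleen (median -0.24). Ubash3a, a phosphatase family member that dampens receptor signaling, was at 149 and 144 TPM in WT adipose and 76.2 and 54.2 TPM in KO adipose (log2 difference -1.18, SE 0.36, adjusted p = 0.467). Activating and inhibitory parts of the pathway thus lay mostly below 0 in KO against WT adipose, as did 67.7% of all genes, and in spleen, as did 63.5%.

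Among 11 other coreceptors and costimulatory receptors, 1 passed in 1 comparison. Tnfrsf9, the costimulatory receptor 4-1BB, was at 22.7 and 69.3 TPM in WT adipose, 25.4 and 32.3 TPM in KO adipose, 321 and 264 TPM in WT spleen, and 224 and 290.5 TPM in KO spleen. It was lower in adipose tissue than in spleen in KO, at a log2 difference of -3.11 (SE 0.50, adjusted p = 0.0337, limma). In WT the difference was -2.84 with an adjusted p of 0.0823. Leaving out either WT adipose library kept the call, and leaving out any 1 of the other 6 ended it, with log2 differences of -2.92 to -3.30 and adjusted p-values from 0.0633 to 0.251. The call was also lost without the filter on low values (adjusted p = 0.122), centred on the T cell genes (0.0559), without the variance trend (0.0598), with library quality weights (0.0892), with only the groups compared (0.101) and without both KO libraries of experiment 2 (0.219). With quality weights the WT difference passed (0.0214). Tnfrsf4, or OX40, was also lower in KO adipose than in KO spleen, at -1.62, with an adjusted p of 0.167 that was 0.0489 with the experiment block. Tnfrsf4 was at 466 to 2536 TPM over the libraries, above Cd28 in each, whereas Tnfrsf9 was below Cd28 in all 4 adipose libraries.

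The genes most like the 9 were sought among the 6443 other genes with a mean of at least 10 TPM, unnamed transcripts and receptor segments left out, by Pearson's r of log2 values over the 8 libraries, which share experiments and scaling. Closest to the mean profile were Slc35b3 (r = 0.954), AI837181 (0.952), Syncrip (0.949), Tesc (0.949) and Rfesd (0.943). Tesc was at 83.4 and 76.7 TPM in WT adipose, 65.3 and 20.7 TPM in KO adipose, 59.3 and 60.1 TPM in WT spleen, and 43.9 and 61.3 TPM in KO spleen. Picked for its likeness to the mean profile, Tesc shared with it the lowest point in KO adipose 3. Each gene taken alone had another closest partner: Eif3m for Cd3d, Setd2 for Cd3e, Rpf1 for Cd3g, Eed for Cd247, Mthfd2 for Cd4, Cdkn2d for Cd28, Lef1 for Lck, Sf1 for Zap70 and Panx1 for Lat, with r from 0.966 to 0.998. No gene was the closest partner of more than 1 of the 9.

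Setd2, the histone methyltransferase closest to Cd3e (r = 0.966), was at 10.3 and 19.0 TPM in WT adipose, 6.85 and 13.4 TPM in KO adipose, 10.05 and 17.0 TPM in WT spleen, and 8.11 and 15.6 TPM in KO spleen. Like Cd3e, for whose profile it was picked, it was higher in each experiment 3 library than in any of experiment 2, as were 6.18% of all genes. Eed, a subunit of the Polycomb repressive complex and the closest to Cd247 (r = 0.972), had the inverse pattern, at 109 and 64.8 TPM in WT adipose, 99.0 and 52.7 TPM in KO adipose, 107 and 67.7 TPM in WT spleen, and 92.1 and 72.4 TPM in KO spleen. Eed was likewise picked for its likeness to Cd247, and 2.04% of all genes were separated in that direction.

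Some of these values may include reads of overlapping genes, since the strand of the counting is not given. RefSeq places Pou2f1, Gm23402 and Gm32999 over part of Cd247, and 1 small gene each over Lck (Mir8119), Zap70 (Gm18828) and Lat (Mir7058). Cd3d, Cd3e, Cd3g, Cd4 and Cd28 overlap no other RefSeq gene.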

How the data were processed

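The deposited table holds TPM values made by the authors; the submitters' processing notes name the build mm9. Aligner, counter and annotation: not given in the sources used here. Sorted cells went through a SMARTer v4 low-input kit and Nextera XT, per the labels' protocols. Each library's column sums to 1000000 TPM, which hides its depth, so no interval for counting error was computed.

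All 8 libraries were fitted on log2(TPM + 1) with limma 3.58.1 (R 4.3.3), with a mean-variance trend and 4 residual degrees of freedom, over the 13376 genes at 1 TPM or more in at least 2 libraries. A fold change on this scale understates the change of low genes. P-values were adjusted over all these genes by Benjamini and Hochberg, with a threshold of 0.05. All 9 genes passed the filter. The fit was tested on simulated data. The members and lists were chosen with earlier results of these data known. Genes outside the 9 were named as the 4 smallest p-values of a list or the closest profiles; within these, those shown were chosen after their values were seen. Values of 1 pathway gene are not reported here. RefSeq symbols gave promoter sequences for 7 of the 9.

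Libraries with the same number deviated together in all 6 pairs of groups (r of the experiment differences over genes 0.128 to 0.382), so the number was also fitted as a block. Alternatives were other pseudocounts (0.1 and 5), filters, scalings, weights, designs and left-out libraries. Tables were handled with Python 3.11.15 and pandas 2.3.3, and plots drawn with matplotlib 3.10.9.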

Additional observations from a re-analysis of the deposited data

Results flagged for a closer look

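Cd4 was lower in KO than in WT adipose tissue in both experiments, at log2 differences of -0.98 and -0.83, and higher in KO than in WT spleen in both, at 0.51 and 0.08. It was marked because each experiment moved one way in adipose tissue and the opposite way in spleen. The test of the difference itself did not pass: the adipose effect minus the splenic effect was -1.20 (SE 0.64, unadjusted p = 0.0944, adjusted p = 0.99998, limma). The summed level of other T cell transcripts was lowest in KO adipose 3, at 2106 TPM, and its part in this difference was not tested.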

How the results depend on the processing

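With 2 libraries per group and unknown depth, no receptor complex gene passed in limma under any alternative run in any of the 5 genotype and tissue comparisons, with 1 exception: between adipose tissue and spleen in KO, Cd3d passed without KO adipose replicate 2, so that the number passing over the left-out libraries was 0 to 1. The replicate block, with the experiment number as a term, left the number at 0 of 9 in each of the 5. Between experiments the number was 0 under each setting run. Over all genes the number passing ranged from 0 to 343 around 38 in KO against WT adipose, stayed at 0 in spleen, ranged from 0 to 219 around 22 between tissues in WT, 0 to 663 around 144 in KO, 0 to 177 around 4 for the difference of genotype effects, and 0 to 5 around 1 between experiments. With the replicate block it was 43, 0, 78, 236 and 0 in the 5 genotype and tissue comparisons. The cause of each change of direction was not tested.

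Leaving out 1 library at a time turned the sign of these estimates. In KO against WT adipose the range was -1.28 to 0.61 for Cd247, -1.46 to 0.29 for Lck, -2.42 to 0.042 for Cd3e, -1.29 to 0.29 for Cd3d, -1.07 to 0.48 for Cd3g and -1.46 to 0.46 for Lat. In KO against WT spleen it was -0.62 to 0.32 for Cd247, -0.026 to 0.62 for Cd4, -0.55 to 0.90 for Zap70, -0.25 to 0.25 for Cd3d, -0.24 to 0.81 for Cd3g, -2.65 to 0.96 for Cd3e, -0.50 to 0.028 for Cd28 and -0.11 to 0.36 for Lat. Between adipose tissue and spleen in WT it was -1.31 to 0.98 for Cd3e, -0.64 to 0.75 for Cd247, -0.59 to 0.70 for Lck, -0.56 to 0.36 for Cd3g and -0.26 to 1.19 for Zap70. In KO it was -2.31 to 1.30 for Cd3e, -1.45 to 0.099 for Cd3g, -1.07 to 0.82 for Cd247, -0.37 to 0.34 for Cd28, -1.07 to 0.68 for Lck and -1.16 to 0.76 for Lat. For the difference of genotype effects it was -1.13 to 0.76 for Cd247, -1.13 to 0.62 for Lck, -2.15 to 1.46 for Cd3e, -1.29 to 0.29 for Cd3d, -1.35 to 0.20 for Cd3g and -1.59 to 0.34 for Lat.

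Centred on the 8 T cell genes, the median of all genes moved from -0.27 to 0.54 in KO against WT adipose, from -0.12 to 0.057 in spleen, from 0.32 to -0.55 between tissues in WT, from 0.16 to -0.061 in KO and from -0.17 to 0.47 for the difference of genotype effects. Estimates that turned were, in KO against WT adipose, Cd3d at 0.32, Cd3g at 0.52, Cd247 at 0.48, Lck at 0.23 and Lat at 0.31, and in spleen Cd247 at 0.023. Between tissues in WT they were Cd247 at -0.81, Cd4 at -0.24, Cd28 at -0.26, Lck at -0.81, Zap70 at -0.40 and Lat at -0.44. For the difference of genotype effects they were Cd3d at 0.14, Cd3e at 0.30, Cd3g at 0.063, Cd247 at 0.46, Cd28 at 0.022, Lck at 0.39 and Lat at 0.014. Without hemoglobin and mitochondrial genes, Cd247 was at -0.11 and Lck at -0.11 between tissues in WT. With quantile normalization these were -0.25 and -0.0087, and Cd3d in KO against WT spleen was -0.00022. Without both KO libraries of experiment 2, Cd3e was at 0.042 in KO against WT adipose, and in spleen Cd3d was at -0.25, Cd3e at 0.96, Cd3g at -0.24, Cd28 at 0.028 and Lat at -0.11. Between experiments, Cd4 was at 0.20 with library quality weights and 0.015 without both WT adipose libraries, and Cd28 at 0.10 without both KO adipose libraries.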

Other observations

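The ITAM adaptors and kinases that myeloid cells, mast cells and B cells use in place of CD3 and Zap70 were measured in the same libraries. Fcer1g was at 20.4 and 207 TPM in WT adipose, 0 and 1109.8 TPM in KO adipose, 112 and 90.3 TPM in WT spleen, and 29.6 and 38.9 TPM in KO spleen. Tyrobp, or DAP12, was at 1188 TPM in KO adipose 3 and at 0 to 142 TPM in the other 7 libraries. Syk, the relative of Zap70 in those cells, was at 4.72 TPM in KO adipose 3 and at most 1.61 TPM elsewhere, so Zap70 was above Syk in every library. None of the 6 genes of this list passed in limma in any of the 5 genotype and tissue comparisons, nor had an unadjusted p under 0.05.

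Trat1, an adaptor that associates with the receptor complex, was at 409 and 67.0 TPM in WT adipose, 411 and 114 TPM in KO adipose, 423 and 224 TPM in WT spleen, and 240.2 and 188 TPM in KO spleen. Every experiment 3 library was below every experiment 2 library, as for Cd3g and Cd247 (log2 difference -1.43, SE 0.37, adjusted p = 0.190, limma). Dok1, an inhibitory adaptor, was the reverse, at 3.01 to 4.21 TPM in experiment 2 and 7.68 to 23 TPM in experiment 3 (log2 difference 1.55, SE 0.35, adjusted p = 0.189). Both were picked out after their values were seen.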
